A study of Mus musculus with 2 samples.

Results

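Mfap5/Clec3b-type mesenchymal cells made up 109 of 450 mesenchymal cells in the skin of E15.5 mouse embryos, and 109 of the 2368 cells kept from 2392 deposited cell barcodes. A kept cell counted as mesenchymal when Col1a1, Col3a1, Lum and Dcn together gave 20 or more UMIs (unique molecular identifiers, each standing for 1 captured RNA molecule), Lum and Dcn gave 5 or more of them, and the pigment genes Dct, Pmel and Mlana gave at most 10. A mesenchymal cell was a member when Mfap5 and Clec3b together gave 4 or more UMIs, and belonged to the other mesenchymal cells at 3 or fewer. Members were therefore chosen by measured values, so every contrast of members with other mesenchymal cells describes that choice and carries no test.

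As background, Mfap5 encodes a microfibril-associated glycoprotein that binds fibrillins in the scaffold of elastic fibres, and Clec3b encodes tetranectin, a secreted plasminogen-binding C-type lectin. In adult mice both mark fibroblasts of loose connective tissue, such as the fascia under the skin and the adventitia around vessels, together with Pi16, Dpp4, Ly6a and Cd34. Fibroblasts of the papillary and reticular dermis arise in the embryo beside this deeper layer, and Crabp1 and Wnt-responsive genes mark the superficial cells.

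The study asked what loss of the histone H3.3 chaperone HIRA does to the melanocyte lineage. The WT library came from TyrCre::Hira wt/wt:tdTomato skin and the KO library from TyrCre::Hira fl/fl:tdTomato skin. The files held 1 library per genotype, and further libraries of the study were not among them. Cre was driven by the Tyr promoter, which is active in the melanocyte lineage, and switched on the tdTomato reporter used for sorting, so all cells had been sorted from trunk skin as tdTomato-positive and free of the dead-cell dye DAPI. The strain background was mixed and close to C57BL/6J in both libraries. Whether a given member had recombined Hira was not measured.

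The WT library held 7073939 UMIs over 1546 deposited barcodes, of which 1540 were kept, and the KO library held 5049514 UMIs over 846 barcodes, of which 828 were kept. Members were 33 WT cells with 138051 UMIs in total and 76 KO cells with 517221. Other mesenchymal cells were 176 WT cells with 909267 UMIs and 165 KO cells with 1034222. A WT member held a median of 3964 UMIs (range 1309 to 10105) and a KO member 5996 (2462 to 18278), beside medians of 4582.5 and 5711 in the other mesenchymal cells. The libraries shared 0 cell barcodes.

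Some differences between the libraries coincide with genotype. The WT library had Xist, the RNA of the inactive X chromosome, at 335 UMIs in members against 1 in KO members, and the KO library had the Y-linked genes Ddx3y and Eif2s3y at 31 and 21 UMIs in members against 0 and 0. The WT cells were therefore female and the KO cells male, and sex, embryo, library and genotype cannot be told apart. Hira itself (chr16:18877037-18970309, plus strand of GRCm38) gave 0 UMIs in the WT members and 6 in the KO members. Counts at the 3′ end need not lie in the deleted part of a gene, and 0 in the WT members allows up to 21.7 CPM (counts of a gene scaled to 1000000 UMIs of the cell group), so these counts checked nothing. The reporter gave a UMI in 0 of 33 WT members and in 6 of 76 KO members (7.89%), beside 6 of 99 WT macrophages (6.06%) and 1 of 17 KO macrophages (5.88%).

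Members also held mesenchymal genes that the rule did not use. All 15 pan-mesenchymal genes other than those of the rule passed the minimum of 50 UMIs over mesenchymal cells in each library, and their summed level in members was 21970.1 CPM in WT and 21254 CPM in KO, against 14202.6 and 15404 CPM in the other mesenchymal cells. The collagen chain gene Col1a2 stood at 6135 CPM in WT members and 6674 CPM in KO members. Pdgfra, a growth factor receptor of most fibroblasts, gave 19 UMIs in WT members and 48 in KO members. Within the list, Fstl1, Fbn2, Postn and S100a6 were higher in members than in other mesenchymal cells of both libraries. Thy1, a surface glycoprotein of many fibroblasts, was lower, with log2 ratios of -1.94 in WT and -2.43 in KO. Other mesenchymal cells passing an Mfap4 rule and not a Crabp1 rule, both defined below, held 20141 and 19395 CPM of the list. Against those cells S100a6 had 1.72 and 1.45, Fstl1 0.87 and 0.36, and Fbn2 0.86 and 0.19 (-0.17 to 0.55). Postn had 0.18 (-0.20 to 0.57) and -0.33 (-0.52 to -0.13), and Thy1 -0.31 (-1.91 to 1.44) and 1.66 (-0.40 to 4.81).

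The share of mesenchymal cells that were members was higher in KO. It was 15.8% in WT (33 of 209 cells, 95% Clopper-Pearson interval 11.1 to 21.5) and 31.5% in KO (76 of 241, 25.7 to 37.8), a difference of 15.7 percentage points (Newcombe interval 7.90 to 23.2). Of all kept cells, members were 2.14% in WT and 9.18% in KO, a difference of 7.04 points (5.06 to 9.28). Mesenchymal cells as a whole also made up more of the KO library, 29.1% against 13.6% of kept cells. Each interval here and below covers counting error only, and with 1 library per genotype no spread between embryos was measured.

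KO cells were deeper, and a fixed UMI threshold reaches further into deeper cells. When every cell was thinned at random to 2000 UMIs before the rule was applied, members were 19 of 146 WT mesenchymal cells (13.0%, 8.02 to 19.6) and 35 of 173 in KO (20.2%, 14.5 to 27.0). The difference was then 7.22 points with an interval of -1.11 to 15.2, so at this depth it was not detectable beyond counting error. With the threshold set on the share of the pair in the cell's UMIs instead, members were 32 of 209 and 69 of 241 cells, and the difference was 13.3 points (5.65 to 20.7). Below the threshold, 11.0% of WT and 20.3% of KO mesenchymal cells held 1 to 3 UMIs of Mfap5 and Clec3b. Cells outside the mesenchymal gate also held Mfap5 more often in KO, with a UMI in 18 of 1331 WT cells and 44 of 587 KO cells, or 0.728% and 3.55% after thinning. For 4 or more UMIs of the pair there, the difference was 0.646 points with an interval of -0.0994 to 1.86, which includes 0. The part of such background in the share of members was not tested.

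In KO the sum of the pair ran across the threshold without a gap, with 26, 13, 10, 8, 5, 6, 4 and 7 cells at 1 to 8 UMIs, beside 13, 6, 4, 1, 2, 4, 2 and 1 in WT. Exactly 4 UMIs, just inside, were held by 1 WT cell and 8 KO cells, and exactly 3, just outside, by 4 and 10. The sum per member had a median of 13 in WT and 11 in KO, with a lowest value of 4 in both and highest values of 28 and 47. Both genes were present in 29 of 33 WT members and 68 of 76 KO members. Of the members, 13 in WT (39.4%) and 31 in KO (40.8%) held 15 or more UMIs, a difference of 1.40 points (-18.4 to 19.9).

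**Figure D1:**
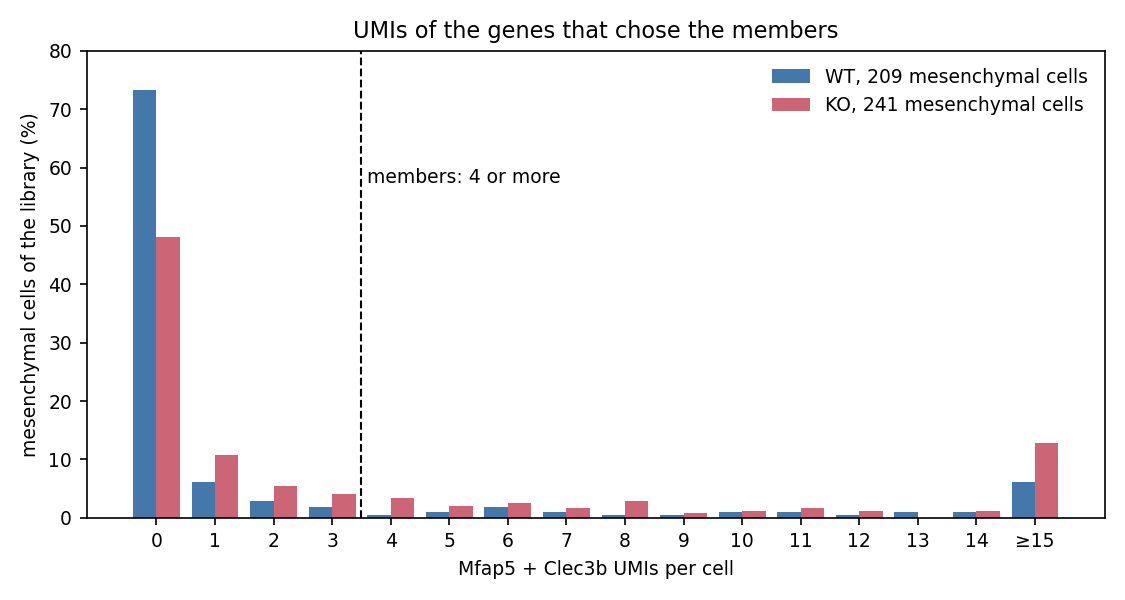
Share of each library's mesenchymal cells, in percent, by the sum of Mfap5 and Clec3b UMIs per cell, with WT (209 cells) and KO (241 cells) as bars beside each other and the threshold for members as a dashed line. Most cells held 0 UMIs (153 in WT, 116 in KO), the KO bars cross the threshold without a gap (10 cells at 3 UMIs and 8 at 4), and the last group of 15 or more holds 13 WT and 31 KO cells.

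Mfap5 (chr6:122505845-122529290, plus strand) gave 160 UMIs in WT members and 562 in KO members, which is 1159 and 1087 CPM, against 11.0 and 28.0 CPM in the other mesenchymal cells. Clec3b (chr9:123150946-123157432, plus strand) gave 265 and 618 UMIs, which is 1919.6 and 1195 CPM, against 29.7 and 51.2 CPM. These gaps follow from the rule. Outside the mesenchymal gate, 5 of 1331 WT cells (0.376%) and 6 of 587 KO cells (1.02%) held 4 or more UMIs of the pair.

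Against the other mesenchymal cells, members in both libraries were higher in genes of loose, fascia-like connective tissue and of the lower dermis and in some genes of elastic fibres, and lower in genes of the Crabp1-type dermal fibroblast. Of 2496 genes with 50 or more UMIs over mesenchymal cells in each library, with the rule genes left out, 167 (6.69%) had a log2 ratio of 1 or more in WT and 213 (8.53%) a ratio of -1 or less. In KO, 91 (3.65%) were at 1 or more and 80 (3.21%) at -1 or less. In both libraries together, 69 (2.76%) were at 1 or more and 47 (1.88%) at -1 or less. The 69 genes were 41.3% of the WT list and 75.8% of the KO list, and the 47 genes 22.1% and 58.8%. The median ratio over the 2496 genes was -0.13 in WT and -0.02 in KO. After thinning to 2000 UMIs per cell, 1042 genes were tested, with 24 at 1 or more and 22 at -1 or less in both libraries. A log2 ratio of 1 is a 2-fold difference in CPM, and a gene with 0 UMIs in a group is given as a bound computed with 3 UMIs there.

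Nov and Sema3c ranked highest among the genes higher in members. Nov, also called Ccn3, encodes a matricellular protein of the CCN family (chr15:54745702-54754039, plus strand) and stood at 304 CPM in WT members against 8.80 CPM in other mesenchymal cells, a log2 ratio of 5.11. In KO it stood at 205 against 11.6 CPM, a ratio of 4.14 (3.28 to 5.14). Sema3c, a secreted semaphorin that guides axons and vascular cells (chr5:17574281-17730268, plus strand), stood at 464 CPM in WT members against 7.70 in the others, a ratio of 5.91 (4.79 to 7.28). In KO the levels were 263 and 35.8 CPM, a ratio of 2.88 (2.34 to 3.44). A Sema3c UMI was found in 22 of 33 WT members and 38 of 76 KO members. It was not limited to them, since 241 of 1331 WT cells outside the mesenchymal gate (18.1%, 16.1 to 20.3) and 140 of 587 KO cells (23.9%, 20.5 to 27.5) held a UMI of it. A Nov UMI was found in 16 of 33 WT members and 36 of 76 KO members, and in 3 of 1331 and 13 of 587 cells outside the gate. Ptn, the heparin-binding growth factor pleiotrophin, had ratios of 2.74 in WT and 1.85 in KO.

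Matrix genes were among the 14 highest too. Fbn1, the main structural protein of microfibrils and a binding partner of the Mfap5 product (chr2:125300594-125507993, minus strand), stood at 464 CPM in WT members against 68.2 in the others and at 396 against 87.0 in KO, ratios of 2.77 (2.24 to 3.29) and 2.19 (1.82 to 2.56). Col14a1, a fibril-associated collagen that regulates fibril diameter, had ratios of 3.27 (2.75 to 3.80) and 2.03 (1.73 to 2.33). Fbln2, a fibulin that binds fibrillin and elastin, had ratios of 2.32 and 1.74. Ugdh, which makes the UDP-glucuronate needed for hyaluronan and proteoglycans, had 2.01 and 1.90.

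Receptors, scaffolds and regulators made up the rest of the 14 highest genes. Itm2a, an X-linked gene of a transmembrane protein, gave 895 UMIs in WT members and 3178 in KO members, with ratios of 2.83 and 2.05. Axl, a receptor tyrosine kinase for Gas6, had 2.33 and 1.86, and Lpar4, a receptor for lysophosphatidic acid, 1.89 and 2.22. Akap12, a scaffold for protein kinase A, had 4.36 and 2.14. Klf4, a zinc-finger transcription factor, had 3.08 and 1.88. Nrk, a kinase of the germinal centre kinase family, had 3.53 and 2.29, and Apod, a secreted lipocalin, 2.01 and 2.38.

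The 14 lowest genes included markers and regulators of superficial dermis. Crabp1, which binds retinoic acid in the cytosol (chr9:54764748-54773110, plus strand), stood at 355 CPM in WT members against 1882 in other mesenchymal cells, a ratio of -2.41. In KO the levels were 102 and 1219 CPM, a ratio of -3.57. In the WT members, 18 of its 49 UMIs lay in 1 cell. Wif1, a secreted Wnt inhibitor of upper dermal cells (chr10:121033960-121100650, plus strand), gave 1 UMI in WT members against 157 in the others and 2 against 154 in KO, ratios of -4.58 (-9.89 to -2.08) and -5.27 (-8.33 to -3.39). Members were thus close to free of Wif1 in both libraries. Ptch1, the Hedgehog receptor and target, had ratios of -3.72 (-9.04 to -1.21) and -2.54 (-4.21 to -1.23). Trps1, a zinc-finger repressor of hair follicle mesenchyme, had -3.98 (-9.30 to -1.47) and -3.07 (-4.55 to -1.90). Bcl11b, another zinc-finger factor, had -4.10 (-9.42 to -1.59) and -4.14 (-6.44 to -2.56). These wide intervals come from 1 to 6 UMIs per gene in members. The homeobox gene Irx1 had -2.84 (-4.73 to -1.45) and -4.62 (-6.91 to -3.04). The agouti gene, which codes for the melanocortin-receptor antagonist of dermal papilla cells, was at 0 UMIs in WT members, a ratio of -2.61 or less, and at -2.26 in KO.

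The other 7 low genes also gave few UMIs in members, from 0 to 14 per library. Cldn10, a tight-junction claudin, had -4.29 (-9.61 to -1.79) in WT and -4.04 or less in KO. Apela, a secreted ligand of the apelin receptor, had -4.13 (-9.44 to -1.62) and -3.61 or less, and Stmn2, a microtubule regulator best known from neurons, -2.52 or less and -4.07 (-7.14 to -2.16). Ppp1r14a, an inhibitor of myosin phosphatase, had -3.25 (-6.31 to -1.36) and -2.90 (-4.06 to -1.93). All of these stayed below -1 at the near end of their intervals. Emp2, a tetraspan membrane protein, had -2.64 (-5.71 to -0.74) and -2.79 (-4.28 to -1.61), and the lysosomal protease gene Ctsh -2.71 and -2.20. Lyz2, the lysozyme of macrophages, had -4.16 (-7.21 to -2.29) and -2.12 (-3.07 to -1.29), and of its UMIs in the other mesenchymal cells 113 of 235 in WT and 40 of 113 in KO lay in 1 cell.

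**Figure D2:**
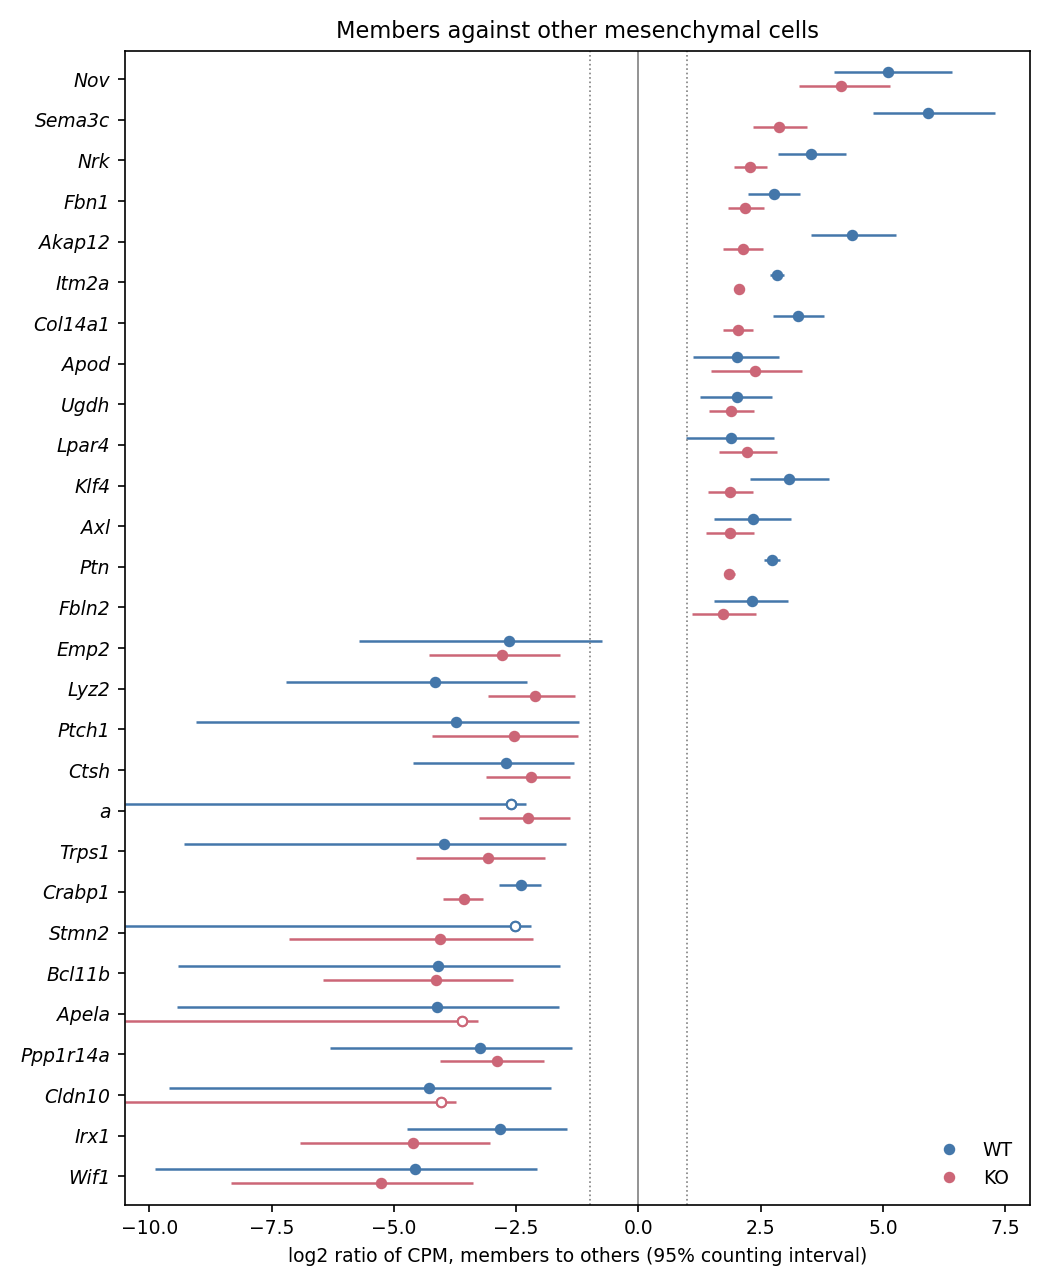
Log2 ratio of CPM in members to CPM in other mesenchymal cells for the 14 highest and 14 lowest genes, with WT and KO as points, 95% counting intervals as bars and open points for bounds where 1 group held 0 UMIs. Dotted lines mark ratios of 1 and -1, and all 28 genes lie beyond them in both libraries, from Nov (5.11 in WT, 4.14 in KO) to Wif1 (-4.58 and -5.27).

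The list of 30 markers of Pi16/Dpp4 fascia and adventitial fibroblasts had a higher summed level in members of both libraries, 3868 CPM in WT and 3138 CPM in KO. Other mesenchymal cells held 384 and 677 CPM, and those of them that passed a rule on Mfap4, Angptl1 and C1qtnf3 and not the Crabp1 rule, both defined below, held 835 and 1379.9. All 7 of its genes that reached 50 UMIs in each library were at 1 or more in both, namely Cd34, Sema3c, Cd248, Creb5, Nov, Islr and Akap12. Over the 13 genes with 20 or more UMIs in WT the median ratio was 4.18, and over 19 in KO it was 2.14, where the same medians over all genes at that minimum were -0.02 (5072 genes) and 0.03 (6559 genes). Each minimum adds members and others, so a sparse gene can reach it mainly through the members, as Nov did with 42 and 8 UMIs in WT and Pi16 with 41 and 2. The count and the medians were thus partly fixed by the minimum and support nothing further. List medians against other mesenchymal cells are over genes with 20 or more UMIs in the library throughout, so they rest on more genes than the counts at 50 UMIs.

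Of the surface and secreted genes of this fibroblast, Pi16, Dpp4 and Ly6c1 were sparse but nearly absent from other mesenchymal cells. Pi16, a secreted peptidase-inhibitor-like protein (chr17:29317680-29330593, plus strand), gave 41 UMIs in WT members against 2 in the others and 75 against 2 in KO, ratios of 7.08 (5.13 to 10.17) and 6.23 (4.33 to 9.30). Ly6a, the Sca-1 antigen of stromal progenitors (chr15:74994877-74998031, minus strand), gave 45 against 0 in WT, a ratio of at least 6.63, and 93 against 15 in KO, a ratio of 3.63 (2.84 to 4.53). Ly6c1, a neighbour in the same Ly6 cluster, gave 12 against 0 and 19 against 0. Dpp4, the dipeptidase CD26 (chr2:62330073-62412231, minus strand), gave 5 UMIs against 3 in WT, a ratio of 3.46 (1.09 to 6.14), and 10 against 0 in KO, at least 2.74. Cd34, a sialomucin of stromal and endothelial progenitors, was less particular to members, at 319 CPM against 50.6 in WT and 236 against 77.4 in KO, ratios of 2.66 and 1.61.

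Counted per cell, at least 1 UMI of Pi16, Dpp4, Ly6a or Ly6c1 was present in 21 of 33 WT members (63.6%) and 31 of 76 KO members (40.8%). In other mesenchymal cells the same held for 4 of 176 (2.27%) and 11 of 165 (6.67%). The share in macrophages, a cell type that should lack these genes, was 2 of 99 cells in WT (2.02%) and 1 of 17 in KO (5.88%), at median depths of 5608 and 6901 UMIs. Pi16 alone was found in 14 WT members (42.4%, 25.5 to 60.8) and 18 KO members (23.7%, 14.7 to 34.8), and after thinning to 2000 UMIs in 8 of 30 (26.7%) and 12 of 76 (15.8%). Macrophages held it in 0 of 99 WT cells, which allows a share of up to 3.03%, and 0 of 17 KO cells, which allows up to 17.6%. Of all cells outside the mesenchymal gate, 11 of 1331 in WT (0.826%, 0.413 to 1.47) and 16 of 587 in KO (2.73%, 1.57 to 4.39) held it, below the intervals for members in both libraries. Other mesenchymal cells held Pi16 in 2 of 176 WT cells (1.14%) and 2 of 165 KO cells (1.21%). Pi16 and Dpp4 were found together in 2 WT and 6 KO members.

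Members with more Mfap5 and Clec3b also held more of the fascia markers. At 4 to 14 UMIs of the pair, 9 of 20 WT cells and 10 of 45 KO cells held a UMI of Pi16, Dpp4, Ly6a or Ly6c1, and at 15 or more, 12 of 13 and 21 of 31 did. The WT group at 15 or more had only 13 cells, and the median depths were 3894.5 and 5229 UMIs at 4 to 14 and 3964 and 6753 at 15 or more. Pi16 stood at 95.3 CPM in WT cells and 32.8 CPM in KO cells at 4 to 14 UMIs, and at 609.7 and 272 CPM at 15 or more. Below the threshold, at 1 to 3 UMIs, Pi16 gave 0 UMIs in both libraries. In KO, Ly6a, Sema3c and Cd55 were about as common just below the threshold as just above it. They were found in 8.16%, 30.6% and 12.2% of KO cells at 1 to 3 UMIs and 8.89%, 33.3% and 13.3% at 4 to 14. At 15 or more the shares were 61.3%, 74.2% and 61.3%. Nov and Cd34 in KO went from 8.16% and 38.8% to 31.1% and 53.3% across the threshold. In WT, Ly6a, Sema3c and Cd55 went from 0%, 13.0% and 4.35% to 35.0%, 50.0% and 35.0%. Ly6a, Sema3c, Nov, Fbn1 and Dlk1 likewise had their highest levels at 15 or more in both libraries, and Crabp1 and Wif1 had theirs in cells with 0 UMIs of the pair.

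**Figure D3:**
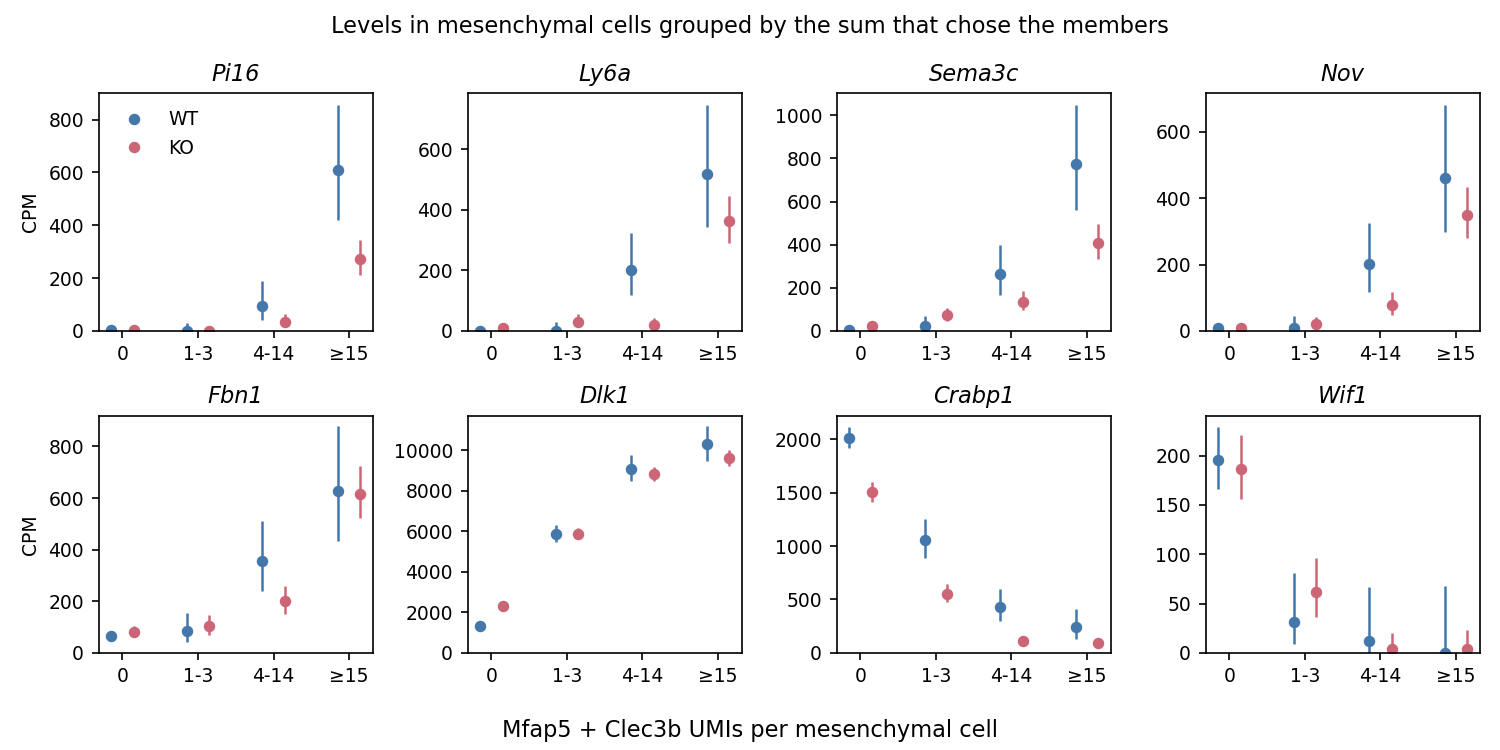
CPM of 8 genes in mesenchymal cells grouped by the sum of Mfap5 and Clec3b UMIs per cell (0, 1 to 3, 4 to 14, 15 or more), with WT and KO as points and 95% counting intervals as bars. Pi16, Ly6a, Sema3c, Nov, Fbn1 and Dlk1 were highest at 15 or more UMIs in both libraries (Pi16 609.7 CPM in WT and 272 in KO), and Crabp1 and Wif1 were highest at 0 (Crabp1 2016 and 1504 CPM).

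Other fascia genes below the minimum of 50 UMIs were also higher in members. Igfbp6, which binds IGF2, had ratios of 5.11 (3.54 to 7.11) and 3.15 (2.64 to 3.69), and Cd55, a complement decay accelerator, 4.18 and 2.65. Wnt2, a Wnt ligand, gave 10 UMIs in WT members against 1 in the others and 29 against 1 in KO. Anxa3, a calcium-dependent membrane-binding protein, gave 6 against 3 and 32 against 3. Has1, Procr, Pcolce2 and Plac9a gave 0 UMIs in WT members, and Procr and Smpd3 gave 0 in KO members, so Procr was not detectable in members at this depth, while Has1 gave 13 UMIs in KO members.

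Genes of elastic fibres and microfibrils were higher in members in part. Of 12 that passed the minimum, 4 were at 1 or more in both libraries (Fbn1, Fbn2, Fbln2 and Loxl1) and 0 at -1 or less, with list medians of 1.64 in WT (17 genes) and 0.94 in KO (18). Loxl1, an oxidase that cross-links elastin, had ratios of 1.98 and 1.58, and Fbn2, the fibrillin of embryonic tissue, 1.54 and 1.10. Eln, the gene of elastin itself, had 2.23 (1.62 to 2.82) in WT and 0.95 (0.51 to 1.39) in KO. Mfap2, the paralogue of Mfap5 in the same protein family, did not separate the groups, with 0.04 (-0.16 to 0.24) and -0.03 (-0.16 to 0.10). The summed level of the list was not highest in members, at 6121 CPM in WT and 5491 in KO. Mesenchymal cells that passed a rule on Mfap4, Angptl1 and C1qtnf3 and not the Crabp1 rule, both defined below, held 7922 and 6581 CPM. Against those cells, Fbn1 had 1.96 (0.89 to 3.23) and 1.53 (0.93 to 2.19), and Fbln2 2.76 and 1.95. Loxl1 had 0.81 (-0.23 to 1.98) and 0.43 (-0.10 to 1.00), and Fbn2 0.86 (0.14 to 1.65) and 0.19 (-0.17 to 0.55). Eln had -0.11 (-0.89 to 0.71) in WT and -0.56 (-1.08 to -0.01) in KO. Those cells had been chosen in part by their Mfap4 UMIs, and how far that choice set the sum was not tested.

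Tnxb, whose product tenascin-X organizes collagen in loose connective tissue, gave 23 UMIs in WT members against 1 in the others and 84 against 20 in KO, ratios of 7.24 (4.62 to 12.61) and 3.07 (2.35 to 3.85). Of 9 fibrillar and microfibrillar collagen genes that passed, 1 was at 1 or more in both libraries, Col14a1, and the list medians were 0.78 (10 genes) and 0.45 (11). Of 5 basement membrane genes, 1 was, Nid1, which links laminin to collagen IV, with 2.11 and 1.39. Among 3 small leucine-rich proteoglycans, Aspn had 2.28 and 1.31 and Ogn 3.15 and 0.99, both of which bind collagen or growth factors, and Bgn had 0.02 and -0.21. Against Mfap4-rule cells, defined below, Aspn was lower in members, with -0.53 (-0.94 to -0.12) in WT and -0.26 (-0.50 to -0.01) in KO. Ogn there had 0.69 (-0.03 to 1.47) and -0.43 (-0.78 to -0.08). The list summed to 1840 and 1827 CPM in members and to 2536 and 2567 CPM in those cells. Dermatopontin, Dpt, a collagen-binding matrix protein listed with the Crabp1-type genes, went against its list with 1.48 and 1.19.

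Of 4 lower-dermis genes that passed, Dlk1, Mest and Plagl1 were at 1 or more in both libraries. Dlk1, a Notch-family ligand that restrains fat-cell formation, stood at 9569 CPM in WT members and 9199 CPM in KO members, against 1951 and 3381 in the others, ratios of 2.29 (2.19 to 2.40) and 1.44 (1.38 to 1.51). Mest, an imprinted hydrolase gene, had 2.49 and 1.32, and Plagl1, an imprinted zinc-finger factor, 3.34 and 1.54. Among 8 genes of IGF signalling, Igf1, Igf2 and Igfbp4 were at 1 or more in both, and Htra1, a protease that cleaves IGF-binding proteins, was at -1.33 and -1.96. Igf1 stood at 529 CPM in WT members and 555 CPM in KO members, against 51.7 and 170.2 CPM in the others. Against Mfap4-rule cells, defined below, the ratios were smaller. Igf1 had 0.83 (0.10 to 1.62) in WT and -0.02 (-0.35 to 0.33) in KO, Igf2 0.30 and 0.12, and Igfbp4 0.71 and 0.30. The IGF list summed to 5273 and 5854 CPM in members and to 4759 and 6130 CPM in those cells.

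Dlk1 and its list were shared with another group of mesenchymal cells. A cell passed the Mfap4 rule when Mfap4, Angptl1 and C1qtnf3 together gave 4 or more UMIs, and the Crabp1 rule when Crabp1, Egfl6 and Twist2 did. Among other mesenchymal cells that passed the Mfap4 rule and not the Crabp1 rule, Dlk1 stood at 8191 CPM in WT and 8983 in KO, and among those that passed the Crabp1 rule at 1283 and 1915. Members themselves passed the Mfap4 rule in 20 of 33 WT cells (60.6%) and 50 of 76 KO cells (65.8%), and the Crabp1 rule in 7 (21.2%) and 13 (17.1%). Of the other mesenchymal cells, 154 of 176 in WT (87.5%) and 114 of 165 in KO (69.1%) passed the Crabp1 rule, and the cells passing only the Mfap4 rule were 15 (8.52%) and 37 (22.4%). The mix within the comparison group thus differed between the libraries, and its part in the smaller KO ratios was not tested.

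Compared with the Mfap4-rule cells alone, fewer genes could be tested and fewer were past the threshold. Of 590 genes tested, 5 were at 1 or more in both libraries and 3 at -1 or less. Fbn1, S100a6, Sema3c and Cd248 were also at 1 or more against all other mesenchymal cells, and 2810417H13Rik was not. Mfap4 and C1qtnf3, which belong to the rule that chose the comparison cells, and Bgn were lower in members, and 0 of the 47 genes lower against all other mesenchymal cells were among these 3. The median of the fascia and adventitial list was 1.83 in WT and 1.53 in KO. Among the 14 highest genes against all other mesenchymal cells, Nov had 3.35 and 2.41 against Mfap4-rule cells, and Fbln2 2.76 and 1.95. Smaller ratios there were those of Col14a1, with 1.26 (0.47 to 2.14) and 0.28 (-0.08 to 0.65), and Akap12, with 1.60 (0.51 to 2.89) and 0.45 (-0.05 to 0.97). Itm2a had 1.23 and 0.56, and Ptn 0.66 and 0.45.

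The Crabp1-type list was lower in members than in all other mesenchymal cells. It summed to 2260.0 CPM in WT members and 1603 in KO members, against 5144 and 3925 in the others and 1701 and 1132.5 in the cells passing only the Mfap4 rule. Those cells had been chosen for failing the Crabp1 rule, whose genes are in the list, so their sum was partly fixed by that choice. Of 11 genes that passed, 7 were at -1 or less in both libraries and 1 at 1 or more, beside 1.88% and 2.76% of all 2496 genes. The list medians were -1.63 over 15 genes in WT and -1.96 over 16 in KO. A gene low in members can reach the minimum mainly through the others. In WT, Wif1 did so with 1 UMI in members and 157 in the others, and Irx1 with 4 and 188. The count and the medians were thus partly fixed by the minimum and support nothing further. Twist2, a basic helix-loop-helix factor of dermal cells, had -2.01 (-2.64 to -1.43) and -2.01 (-2.38 to -1.66), and Egfl6, a secreted matrix protein, -1.63 and -3.06. Nkd1, a feedback inhibitor and target of Wnt signalling, had -2.17 (-4.48 to -0.58) and -1.51 (-2.37 to -0.73). Lef1, the transcription factor of the Wnt pathway, gave 1 UMI against 38 in WT and 1 against 26 in KO. The list of Wnt ligands and antagonists as a whole lay near 0, with medians of -0.55 (9 genes) and -0.51 (12), Wif1 being the only 1 of 4 at -1 or less in both.

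Transcription factors lay on both sides. Of 16 mesenchymal transcription factors that passed, 3 were at 1 or more in both libraries (Klf2, Klf4 and Creb5) and 4 at -1 or less (Prrx2, Twist2, Zeb2 and Tcf4). Over all 2496 genes the shares were 2.76% and 1.88%. The list medians were 0.31 over 30 genes and 0.05 over 36. Klf2, a Krüppel-like factor, had 1.95 and 1.68. Zeb2, a zinc-finger repressor best known from the epithelial-to-mesenchymal transition (EMT), had -1.20 and -1.61, and Prrx2, a paired-related homeobox factor of mesenchyme, -3.08 (-5.37 to -1.51) and -1.34 (-2.07 to -0.67). Against Mfap4-rule cells, Klf2 had 0.01 in WT and 0.64 in KO, Klf4 1.96 and 0.71, and Creb5 1.60 and 0.10. Prrx2 there had -2.04 and -0.22, Tcf4 0.21 and -0.82, and Zeb2 1.16 (-0.27 to 2.91) and 0.44 (-0.39 to 1.37). Twist2, a gene of the Crabp1 rule that those cells failed, had 2.60 and 1.08. The EMT list held 18 genes that passed, 3 at 1 or more (Cd44, Fbn1 and Postn) and 3 at -1 or less (Twist2, Zeb2 and Thy1), and the medians were 0.50 over 23 genes and 0.33 over 29.

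Signalling and enzyme lists gave fewer genes. Of 3 genes of TGF-beta and BMP signalling, 2 were at 1 or more in both libraries, Fst, an activin antagonist, with 1.21 and 2.43, and Fstl1, a secreted follistatin-like glycoprotein, with 1.38 and 1.01. Of 14 proteases and inhibitors, Timp1, an inhibitor of matrix metalloproteinases, had 1.89 and 1.09, and Htra3, a serine protease, 2.53 and 1.17. The chemokine Cxcl14 was lower, with -1.35 and -2.68, and Cxcl12, the ligand of Cxcr4, had 0.82 and 0.30. The 2 genes of PDGF and FGF signalling that passed were not past 1 or -1 in both libraries. Among complement genes 0 passed, and Serping1, the C1 inhibitor, had 2.53 (1.38 to 3.66) and 2.49 (1.60 to 3.44) below the minimum.

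Cell-cycle genes past the threshold were 0. Of 11 S-phase and 11 G2M genes that passed, 0 were past 1 or -1 in both libraries. The medians, over 18 genes of each list in WT and 19 in KO, were -0.04 and -0.13 for S phase and -0.56 and 0.26 for G2M. Mki67, a marker of cycling cells, was found in 6 of 33 WT members (18.2%) and 12 of 76 KO members (15.8%), and in 15 of 99 WT macrophages (15.2%) and 2 of 17 KO macrophages (11.8%). Of 15 immediate-early and heat-shock genes, which rise during tissue dissociation, Fosb, Atf3 and Dnajb1 were at 1 or more in both libraries, and the medians were 0.72 and 0.16. Their part in the other ratios was not tested. The median mitochondrial share was 2.67% in WT members and 2.55% in KO members.

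Macrophage and melanoblast markers were low in members. The macrophage list summed to 130.4 CPM in WT members and 81.2 CPM in KO members against 26219 and 20314 CPM in macrophages, with Pf4 and Lyz2 as its most abundant genes and C1qa, Csf1r and Adgre1 at 0 in both. The other mesenchymal cells held more of the list, 461 and 628 CPM, and all 3 of its genes that passed were at -1 or less in both libraries. In those cells 21 of 68 Tyrobp UMIs in WT, and 25 of 101 Tyrobp and 40 of 107 C1qb UMIs in KO, lay in 1 cell each, and the part of macrophage RNA there was not tested. The melanoblast list summed to 174 and 149 CPM, with Ptgds as its most abundant gene and Tyrp1 at 0 in both, and 0 of 1 gene that passed was past the threshold. Sox10, a transcription factor of the neural crest, gave a UMI in 1 of 33 WT members and 9 of 76 KO members (11.8%), beside 701 of 1331 WT cells and 337 of 587 KO cells outside the mesenchymal gate. After thinning it was found in 0 of 30 and 1 of 76 members.

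In the lists of endothelium, mast cells, skeletal muscle and cartilage and bone 0 genes passed the minimum. The endothelial list summed to 43.5 CPM in WT members and 32.9 CPM in KO members, with Egfl7 and Pecam1 as its most abundant genes and Kdr, Tie1, Emcn and Esam at 0 in both. Mast cell genes summed to 109 and 19.3 CPM, with Cma1 as the most abundant and Mcpt4 at 0. Skeletal muscle genes summed to 36.2 and 32.9 CPM, with Tnnt1 as the most abundant and Myod1 and Pax7 at 0, and cartilage and bone genes to 7.24 and 5.80 CPM, with Col2a1, Acan and Sp7 at 0. The tendon list, with 0 of 1 gene past the threshold, summed to 116 and 102 CPM against 791 and 473 CPM in Mfap4-rule cells, with Tnmd and Thbs4 as the most abundant genes and Comp at 0 in both. The part of these cell types in the ratios was not tested.

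Mural and fat-cell markers were less clear. The list of pericytes and smooth muscle, of which 0 genes passed, summed to 268 CPM in WT members and 416 CPM in KO members, against 24.2 and 129.6 in the others. Its most abundant genes were Kcnj8 in WT (94.2 CPM), a potassium channel gene of pericytes, and Acta2 in KO (215 CPM), the smooth muscle actin, with Rgs5 and Cnn1 at 0 in both. Of the 111 Acta2 UMIs in KO members, 96 lay in 1 cell. The adipocyte list, with 0 of 3 genes past the threshold in both libraries, summed to 261 and 381 CPM against 665 and 219 in the others. In the WT others, 147 of 244 Fabp4 UMIs and 144 of 179 Car3 UMIs lay in 1 cell, and those passing the Crabp1 rule or only the Mfap4 rule held 142 and 149 CPM of the list. Its most abundant genes were Lpl in WT and Fabp4 in KO, with Adipoq, Plin1 and Cidec at 0 in members of both libraries. Nerve-sheath fibroblast genes, of which 1 passed, had medians of 0.17 over 4 genes and 0.06 over 7, and sums of 225 and 276 CPM. Doublets were not removed, and a doublet caller marked 0 members and 2 other mesenchymal cells in each library.

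Between the genotypes, KO members had more haemoglobin and keratin transcripts than WT members and less of Cxcl14, Crabp1 and Egfl6, while genes that marked the members were lower, near equal or higher in KO, depending on the gene. Of 1786 genes with 50 or more UMIs over the members of both libraries, 65 (3.64%) had a log2 ratio of KO to WT of 1 or more and 24 (1.34%) of -1 or less. In other mesenchymal cells the same genes gave 85 (4.76%) and 10 (0.56%). The median ratio was 0.00 in members and -0.03 in the others. The balance depended on the minimum, with 216 and 142 of 3849 genes in members at 20 UMIs, 23 and 4 of 937 at 100, and 19 and 3 of 601 after thinning. As a mean over cells it was 81 and 46. KO members hold more UMIs, so a gene can pass the pooled minimum through them alone, as Lgals7 did with 0 UMIs in WT and 139 in KO. No test was possible with 1 library per genotype.

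Genes at higher levels in KO were led by transcripts of red blood cells and of the epidermis, and these were also higher in other cells of the library. Hbb-bs, an adult beta-globin gene, had a ratio of 4.46 (3.22 to 6.09) in members and 3.93 (3.48 to 4.42) in the others. A UMI of it was held by 98.7% of KO members against 15.2% of WT members, and after thinning to 2000 UMIs by 75.0% against 6.67%. Macrophages of the KO library held it in 17 of 17 cells. The erythroid list summed to 72.4 CPM in WT members and 1305 CPM in KO members, and to 205 and 1333 CPM in macrophages. Hbb-y, Hba-x and Alas2 were at 0 in members of both libraries, and all 4 genes of the list that passed were at 1 or more. KO levels were thus alike across cell types that do not make haemoglobin, and the part of these transcripts in the ratios of other genes was not tested.

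The keratinocyte list was also higher in macrophages of the KO library. It summed to 72.4 CPM in WT members and 454 CPM in KO members, with Krt10 as its most abundant gene, and to 33.6 and 291 CPM in macrophages, with Krt5, Krt14, Krt15, Epcam, Perp and Sfn at 0 in WT members. Krt1, a keratin of the suprabasal epidermis, had ratios of 2.46 (0.85 to 4.78) in members and 6.03 (4.16 to 9.09) in the others, and was found in 59.2% of KO members beside 41.2% of KO macrophages. Lgals7, an epithelial galectin, had at least 3.63 in members and 2.98 in the others. In the others, 123 of 350 KO UMIs and 32 of 39 WT UMIs lay in 1 cell each. Without the cell with most Lgals7 UMIs in each library, the ratio in the others was 4.84 (3.78 to 6.18). S100a8, a calgranulin of neutrophils and stressed epidermis, had 2.34 (0.72 to 4.66) and 2.71 (1.95 to 3.56). Of the 10 highest genes in members, 9 were also at 1 or more in the other mesenchymal cells. The exception was Lsp1, a leukocyte actin-binding protein, with 2.15 (0.52 to 4.48) in members and 0.89 (0.30 to 1.51) in the others.

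Of 10 IGF genes that passed, Igfbp2, Igfbp6 and Igfbp7 were at 1 or more in KO members relative to WT members, beside 3.64% of all 1786 genes. Igfbp2 gave 2 UMIs in WT members, both in 1 cell, and 74 in KO members, so it passed the minimum mainly through KO members. Its ratio was 3.30 (1.40 to 6.38) in members and 1.57 (0.99 to 2.19) in the others. Igfbp6 stood at 152 CPM in WT members and 334 CPM in KO members, a ratio of 1.14 (0.48 to 1.87), and Igfbp7 had 1.23 (0.29 to 2.34). Igfbp4 had -0.10 (-0.42 to 0.24), and the ligand genes Igf1 and Igf2 had 0.07 (-0.31 to 0.46) and 0.06 (-0.21 to 0.34). In the others 6 of the 10 were at 1 or more, beside 4.76% of all 1786 genes. The mix of Crabp1-rule and Mfap4-rule cells there differed between the libraries, and its part in these ratios was not tested. Klf2 stood at 196 CPM in WT members and 507 CPM in KO members, a ratio of 1.37, and had 1.65 in the others.

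Cxcl14, Crabp1 and Egfl6 were lower in KO members. Cxcl14, a chemokine of fibroblasts and epithelia (chr13:56288643-56296551, minus strand), stood at 196 CPM in WT members and 46.4 CPM in KO members, a ratio of -2.08 (-2.93 to -1.23), and had -0.74 in the others. Crabp1 had -1.79 (-2.38 to -1.20) in members and -0.63 in the others, and Egfl6 -1.75 (-2.56 to -0.93) and -0.32. Crabp1 and Egfl6 were the only 2 of 7 genes of the Crabp1-type list at -1 or less, and the list median was -0.38 in members and -0.32 in the others. All 3 genes were also lower in members than in the other mesenchymal cells of each library. Without the cell that held most UMIs of the gene in each library, an alternative chosen after seeing the data, the ratios in members were -1.64 for Cxcl14, -1.37 for Crabp1 and -1.64 for Egfl6. In WT members it was the same cell, of 9292 UMIs in total, that held 12 of 27 Cxcl14, 18 of 49 Crabp1 and 7 of 26 Egfl6 UMIs, so the 3 ratios are not separate.

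The ranking left out Xist, Tsix, 4 Y-linked genes, the reporter and the rule genes. Other X-linked genes stayed in it, among them Egfl6, Klhl13 and Pbdc1 of the 10 lowest, and the part of sex in their ratios cannot be told apart from that of genotype. The remaining 7 low genes had ratios nearer to -1 in members. Cntfr, the receptor for ciliary neurotrophic factor, had -1.17 (-1.99 to -0.31) in members and 0.02 in the others, and Cited2, a coactivator-binding transcriptional regulator, -1.17 and -0.09. Pamr1, a secreted protein with a peptidase-like domain, had -1.20 (-2.07 to -0.29) in members and 2.46 (0.92 to 4.44) in the others, where it gave 4 UMIs in WT and 25 in KO. Pdia5, a protein disulfide isomerase, had -1.38, Klhl13, an adaptor of cullin ubiquitin ligases, -1.32, Pbdc1 -1.30 and Tnrc6c, a protein of microRNA silencing, -1.30. Outside these 10 genes, the B-cell and fat-cell factor Ebf1 stood at 659 CPM in WT members and 305 CPM in KO members, a ratio of -1.11 (-1.49 to -0.72), Twist1 had -1.12 and the gelatinase Mmp2 -1.03.

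**Figure D4:**
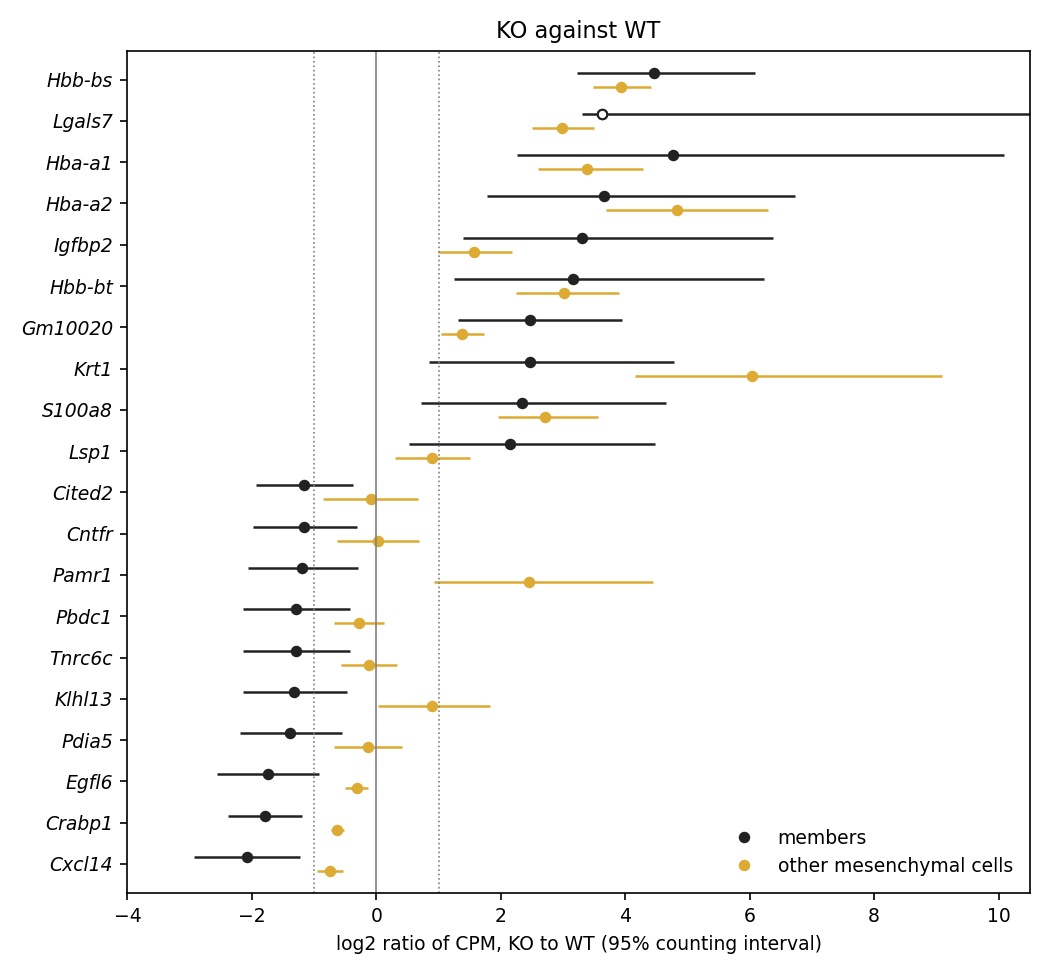
Log2 ratio of CPM in KO to CPM in WT for the 10 highest and 10 lowest genes in members, without Xist, Tsix, Y-linked, reporter and rule genes, with members and other mesenchymal cells as points, 95% counting intervals as bars and an open point for a bound where WT members held 0 UMIs. The haemoglobin and epidermal genes lie above 1 in both cell groups (Hbb-bs 4.46 in members, 3.93 in the others), and Cxcl14 (-2.08, -0.74), Crabp1 and Egfl6 lie below -1 in members only.

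Markers of the members themselves were lower, near equal or higher in KO, depending on the gene. Mfap5 had a ratio of KO to WT of -0.09 (-0.35 to 0.17) in members and Clec3b -0.68 (-0.89 to -0.47), both bounded by the rule. Sema3c had -0.82 (-1.26 to -0.37), Cd55 -0.81 (-1.57 to -0.01) and Nov -0.57 (-1.10 to -0.02), beside Fbn1 with -0.23 (-0.64 to 0.20), Cd34 with -0.43 (-0.94 to 0.10) and Col14a1 with -0.05 (-0.41 to 0.33). Dlk1 had -0.06 (-0.15 to 0.03) in members, and 0.79 (0.71 to 0.88) in the others. Of the others, 8.52% in WT and 22.4% in KO passed only the Mfap4 rule. The part of this mix in the ratio was not tested. A Dlk1 UMI was also commoner in KO among cells outside the mesenchymal gate, with 230 of 1331 WT cells (17.3%) and 359 of 587 KO cells (61.2%), and the part of this background in the ratios was not tested. Pi16 was lower in KO members, at 145 CPM against 297 in WT members, a ratio of -1.03 (-1.60 to -0.45), or -0.98 without the cell with most Pi16 UMIs in each library. Ly6a had -0.86 (-1.39 to -0.31) and Ly6c1 -1.24 (-2.36 to -0.07). Of 12 genes of the fascia and adventitial list that passed, 2 were at 1 or more, Igfbp6 with 1.14 (0.48 to 1.87) and Plac9b, and 1 at -1 or less, Pi16, with a median of -0.36. In the others 5 of the 12 were at 1 or more and 0 at -1 or less, with a median of 0.67.

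Other lists had few genes past 1 or -1 between the members of the libraries. Over all 1786 genes, 3.64% were at 1 or more and 1.34% at -1 or less. Of 18 EMT genes, 1 was at 1 or more and 2 at -1 or less, and of 13 mesenchymal transcription factors also 1 and 2. Among 16 proteases and inhibitors 0 were at 1 or more and 2 at -1 or less, and among 14 pan-mesenchymal genes 0 and 2. For elastic fibres 0 of 15 genes were past 1 or -1, with a median of -0.18, and for collagens 0 of 11, with a median of 0.23. Of 15 immediate-early and heat-shock genes 0 were past it, with a median of -0.10. The H3.3 genes, whose product HIRA deposits, had ratios of 0.07 (-0.19 to 0.34) for H3f3a and -0.66 (-0.82 to -0.50) for H3f3b in members, and -0.08 and -0.30 in the others. Of 4 S-phase genes, 1 was at -1 or less, Slbp, which binds the stem loop of histone mRNAs, with -1.02 (-1.65 to -0.36) in members and 0.07 in the others. Against other mesenchymal cells, 0 of 3 genes of the list of HIRA complex and H3.3 genes were past 1 or -1 in both libraries, and the medians were 0.26 over 5 genes in WT and -0.16 over 6 in KO.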

How the data were processed

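Deposited values were raw UMI counts per gene and cell barcode, which the authors made for each library with Cell Ranger 2.2.0 against mm10, as the submitters' processing notes state. The 28000 genes of both libraries were read with Python 3.11.15, numpy 2.4.6, scipy 1.17.1, pandas 2.3.3, scanpy 1.11.5 and anndata 0.12.19, and plots were drawn with matplotlib 3.10.9. Barcodes with fewer than 100 genes or more than 10% mitochondrial UMIs were left out, doublets called by Scrublet in scanpy were kept, and no counts were corrected for free RNA. For each cell group the UMIs of a gene were added up and scaled to CPM. Log2 ratios carry exact conditional binomial 95% intervals, shares carry Clopper-Pearson intervals, or for 0 cells the limit of 3 cells of the total, and their differences Newcombe intervals. Counts under 3 were set to 3 for calls and ranks and for bounds. With 1 library per genotype there was no test, and the ratio code was tested on simulated data. Macrophages had 10 or more UMIs of C1qa, C1qb and C1qc and lay outside the mesenchymal gate. Thinning drew 2000 UMIs per cell, without cells that held fewer.

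Genes were named by a rule. It took the 14 highest and 14 lowest ratios of members to other mesenchymal cells, ranked by the weaker library, and the 10 highest and 10 lowest ratios of KO to WT members, with Xist, Tsix, 4 Y-linked genes, the reporter and rule genes left out. It also took the rule genes, genes of the 37 lists, and Hira, the reporter and sex-linked genes as checks. Members and lists were chosen with earlier results of these data known. Gene positions came from GENCODE M21 (GRCm38). Alternatives changed the thresholds of the member rule and of the gate, the gene minimum, the scaling, the depth, the comparison cells and the weight of single cells.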

Additional observations from a re-analysis of the deposited data

Results flagged for a closer look

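Of 150 named genes outside the rule with 50 or more UMIs in members and in other mesenchymal cells, both libraries added, 4 had opposite directions in members and in other mesenchymal cells, each with an interval of the ratio of KO to WT away from 0 in both. Genes under that minimum were not counted, such as Sema3c with -0.82 in members and 2.22 in the others (7 UMIs in WT and 37 in KO) and Pamr1 with -1.20 and 2.46 (4 and 25). The difference between the cell groups was not tested for any of them. The mix within the other mesenchymal cells differed between the libraries, as given above, and its part in these ratios was not tested. Fabp4, a fatty acid-binding protein of fat cells and endothelium, had a log2 ratio of KO to WT of 1.09 in members and -1.74 in the others, and 147 of its 244 UMIs in WT others and 33 of 72 in KO members lay in 1 cell each. Without the top cell of each library the ratio in members was 0.50 (-0.68 to 1.90). Junb, a subunit of the AP-1 transcription factor, had -0.38 in members and 0.45 in the others, and without the top cell -0.28 (-0.63 to 0.07) in members. The intervals of both genes in members then included 0. Klhl13, an X-linked adaptor of ubiquitin ligases, had -1.32 in members and 0.90 in the others. Ptn, the growth factor pleiotrophin, had -0.36 in members and 0.53 in the others.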

How the results depend on the processing

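Of 75 alternatives for the share of members, the gene counts and the median of the fascia and adventitial list, 62 stayed within the range set for them, 13 moved and 0 reversed. The range was the 95% interval for the share and 1.5 times for counts. List medians carried no interval, and counted as within when they moved by less than the gap between the WT and KO medians (4.18 and 2.14). That range is wide and came from these same data. It held 12 of 13 alternatives for the WT median and 13 of 13 for the KO median, so these counts say little about how stable the medians are. The difference in the share of members was 7.04 points over all kept cells and 7.22 points with cells thinned before the rule. Genes higher in members in both libraries went from 69 to 24 after thinning, 160 and 27 at minimums of 20 and 100 UMIs, and 5 against Mfap4-rule cells. Genes lower in members went from 47 to 22 after thinning, 25 at a minimum of 100 UMIs and 3 against Mfap4-rule cells. Genes past 1 or -1 between KO and WT members went from 89 to 22 after thinning, 358 at a minimum of 20 UMIs and 27 at 100, and the balance of higher and lower in KO went from 65 and 24 to 19 and 3, 216 and 142, and 23 and 4. The number of genes tested moved with each of these settings. The list median in WT was 1.83 against Mfap4-rule cells instead of 4.18, counted as moved. It was 2.66 over the 7 genes left at a minimum of 50 UMIs, counted as within. The cause was not tested. In 16 alternatives for single genes, chosen after seeing the data, the cell with most UMIs of the gene was left out of each library, and 14 stayed within the interval of the main value. Among these 14, Fabp4 in members was 0.50 (-0.68 to 1.90) instead of 1.09 and Junb in members -0.28 (-0.63 to 0.07) instead of -0.38, both with an interval that then included 0. The ratio of KO to WT for Acta2 in members then reversed from 1.43 to -0.66, since 96 of 111 UMIs in KO members lay in that cell, and Fabp4 in other mesenchymal cells moved from -1.74 to -0.98. Depth sets a floor, since 3 UMIs correspond to 21.7 CPM in WT members and 5.80 in KO members, and to 44.8 in WT Mfap4-rule cells and 55.4 in WT members at 15 or more UMIs of the pair.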
